A study of Mus musculus with 41 samples.

Results

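Scavenger receptors are the surface proteins through which macrophages bind modified lipoproteins, apoptotic cells, bacteria and other polyanionic ligands. The 7 genes described here were Cd36, Msr1, Marco, Scarb1, Olr1, Colec12 and Stab1, chosen by symbol. All 7 were found among the 24537 gene symbols of the mouse read-count table, and their levels are given in every RNA library, with the chromatin peaks around Cd36 and Msr1.

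All samples came from C57Bl6 mice. Microglia, the resident macrophages of the brain parenchyma, were sorted as live CD11b+ CD45Low cells. RNA was sequenced from microglia cultured for 7 d with IL-34 and TGFβ (n = 2 libraries), for 7 d (n = 5), 24 h (n = 3) or 6 h (n = 2) with IL-34 alone, from microglia taken directly ex vivo (n = 5), and from whole brain lysate (n = 4). Every culture, including those without TGFβ, held DMEM/F12 with 5% heat-inactivated serum, received the cytokine IL-34 daily and had no medium change. The label of 24 h replicate 2 gives 22 h. The labels name no genetic modification and do not say whether replicates were separate animals or separate cultures, so each p-value speaks for the spread among libraries and no more.

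Msr1, Marco and Colec12 belong to class A, whose members carry a collagen-like stalk, and CD36 and SR-BI (the product of Scarb1) to class B, which bind fatty acids and lipoproteins. LOX-1, encoded by Olr1, is a C-type lectin that binds oxidised LDL, and stabilin-1, encoded by Stab1, is a large endocytic receptor of tissue-resident macrophages and sinusoidal endothelium. In macrophages the uptake of modified lipoproteins by these receptors feeds the lysosome, lipid droplets and cholesterol efflux, and transcription of Cd36 is known to respond to PPARγ.

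Total counts ranged from 11584561 to 28841472 per library. Ex vivo libraries carried the microglia markers (8 genes, P2ry12 and Tmem119 among them) at a summed 39800 to 44400 CPM (read counts scaled to a common library size, with TMM factors), and the lysate at 243 to 341 CPM. Cultures held less of these markers: 4620 to 4910 CPM at 6 h, 3970 to 4290 CPM at 24 h, 6680 to 9460 CPM at 7 d and 13800 to 16200 CPM at 7 d with TGFβ. In bulk RNA, fewer cells of a type and less RNA per cell cannot be told apart. The 5 ex vivo libraries differed in RNA of other cells. Their summed border-macrophage markers (8 genes) were 54.2, 63, 105, 7.31 and 16.9 CPM in replicates 1 to 5, and their neutrophil markers (6 genes) 7.01, 173, 155, 3.22 and 38.5 CPM. At 7 d, replicates 2 and 3 stood apart from the other 3 in several receptors below.

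Among the 7 genes, Stab1 was the most abundant in microglia taken directly from the brain. Per transcript length, on the deposited TPM scale, Stab1 averaged 414 TPM ex vivo and Scarb1 39.2 TPM, while the other 5 receptors averaged between 0.358 TPM (Colec12) and 0.822 TPM (Cd36) with ranges that overlapped. Of the 6 receptors tested against brain lysate, 5 passed the test, 4 of them higher in the sorted cells, against 82.7% of the 15335 genes tested (39.1% higher and 43.5% lower). Marco had too few counts to enter this test.

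Stab1 read 2072, 1531, 1488, 2146 and 2688 CPM in ex vivo microglia, against 14.3, 17.6, 25.5 and 26.95 CPM in lysate. The lowest ex vivo library was far above the highest lysate library, a 94.4-fold difference (log2 fold change 6.56 ± 0.30 SE, edgeR adjusted p = 1.32e-09). Scarb1 averaged 58.5 ± 5.86 CPM in microglia and 22.7 ± 1.42 CPM in lysate (SD, n = 5 and 4), without overlap and 2.58-fold higher (edgeR adjusted p = 5.1e-07). Msr1 was low in both, at 2.26, 4.07, 4.43, 1.50 and 1.11 CPM in microglia and 0.0454, 0.0343, 0.378 and 0.212 CPM in lysate. Lysate held 10 Msr1 reads in all, and microglia were 18.6-fold higher (log2 4.22 ± 0.69, edgeR adjusted p = 0.000113; 4.95 without lysate replicate 3). Olr1 had 110 reads in microglia and 0 in lysate, at least 28.5-fold higher when the lysate group is set at a floor of 3 counts over its 4 libraries.

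Colec12 went the other way. It read 0.107, 0.872, 2.00, 0.0836 and 0.458 CPM in microglia, against 5.13, 5.04, 10.7 and 6.63 CPM in lysate. All lysate libraries exceeded all microglia libraries, and Colec12 was 9.12-fold lower in microglia (log2 -3.19 ± 0.64, edgeR adjusted p = 0.000658; -4.34 without ex vivo replicate 3). Cd36 read 0.967, 2.47, 3.87, 0.0836 and 1.05 CPM in microglia and 0.636, 0.960, 3.02 and 0.282 CPM in lysate. The groups overlapped across their range, and the difference did not pass the test (log2 0.54 ± 0.80, edgeR adjusted p = 0.543). Without ex vivo replicate 3 its sign turned, to -0.23. Marco had 41 reads in microglia, 40 of them in replicate 2, and 0 in lysate. Cd36, Msr1 and Colec12 were each highest in ex vivo replicate 3, and Marco and Olr1 in replicate 2. Those libraries held the most neutrophil and border-macrophage marker RNA ex vivo. Replicate 3 also held the most astrocyte (145 CPM), choroid and ependyma (112 CPM), oligodendrocyte (196 CPM) and neuron (13 CPM) marker RNA ex vivo. The part of any of these cells in the receptor levels was not tested. The endothelial markers (8 genes) summed to 45.3 to 58.9 CPM ex vivo and 150 to 279 CPM in lysate, with Cldn5 at 0 reads ex vivo and Pecam1, which some leukocytes also carry, at 3561 reads.

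**Figure D1:**
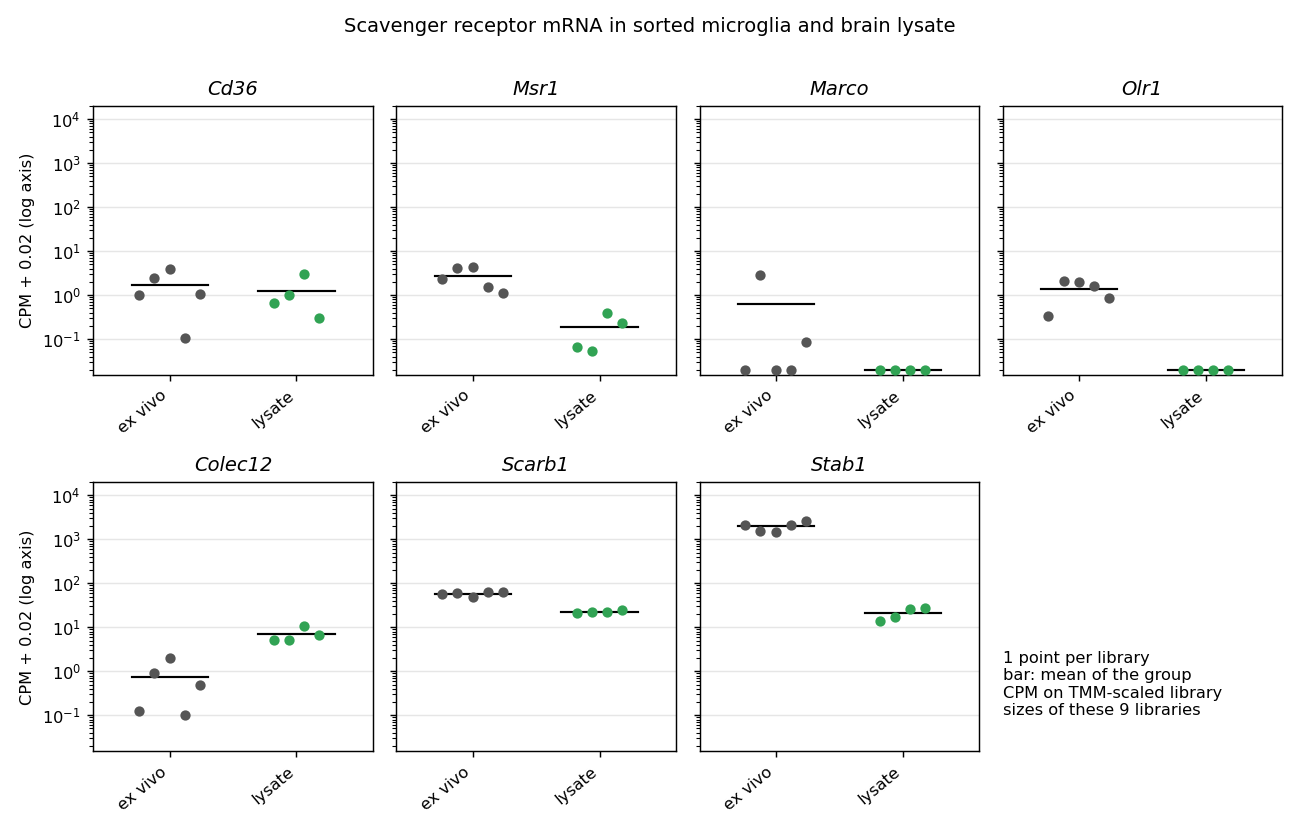
Scavenger receptor levels in ex vivo microglia (left, n = 5) and brain lysate (right, n = 4), as CPM plus an offset of 0.02 on a log axis; each point is a library and each bar a group mean, and a gene with no reads sits at the offset. Stab1 lies between 1488 and 2688 CPM in microglia and between 14.3 and 26.95 CPM in lysate, whereas Colec12 is higher in lysate.

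Cd36 and Msr1 were higher than ex vivo at 6 h, 24 h and 7 d, and higher at 7 d than at 24 h; the step between 6 h and 24 h did not pass the test. Cd36 read 0.835, 2.13, 3.35, 0.0717 and 0.890 CPM ex vivo, 94.8 and 71.5 CPM at 6 h, 257, 237 and 131 CPM at 24 h, and 465, 835, 691, 439 and 424 CPM at 7 d. No library of a later time overlapped with an earlier one. Relative to ex vivo, Cd36 was 54.2-fold higher at 6 h (log2 5.76 ± 0.55, edgeR adjusted p = 1.95e-07), 136-fold at 24 h (7.09 ± 0.55, adjusted p = 2.21e-08) and 372-fold at 7 d (8.54 ± 0.57, adjusted p = 2.84e-09). These 3 comparisons share the ex vivo libraries, of which replicate 3 holds the most Cd36; without it the log2 differences were 6.39, 7.72 and 9.14.

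Msr1, the class A receptor named for its part in macrophage uptake of acetylated LDL, followed the same order. It read 1.95, 3.50, 3.83, 1.29 and 0.945 CPM ex vivo, 52.4 and 34.9 CPM at 6 h, 120, 95.8 and 68.8 CPM at 24 h, and 554, 630, 479, 644 and 447 CPM at 7 d. Here too no library of a later time reached down to an earlier one. Msr1 was 18.6-fold higher at 6 h (log2 4.22 ± 0.40, edgeR adjusted p = 1.47e-07), 40.4-fold at 24 h (5.34 ± 0.39, adjusted p = 8.18e-09) and 234-fold at 7 d (7.87 ± 0.41, adjusted p = 1.55e-10).

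Olr1 was high early and low again at 7 d. It read 0.278, 1.81, 1.73, 1.36 and 0.723 CPM ex vivo, 21.0 and 12.3 CPM at 6 h, 25.1, 19.5 and 11.7 CPM at 24 h, and 0.479, 0.446, 0.669, 0.158 and 0.256 CPM at 7 d. The 6 h and 24 h libraries stood above all others, and the 7 d libraries overlapped with the lowest ex vivo one. Olr1 was 14.2-fold higher at 6 h (log2 3.82 ± 0.50, edgeR adjusted p = 4.62e-06) and 15.9-fold at 24 h (3.99 ± 0.47, adjusted p = 1.8e-06). At 7 d it was 45.6-fold lower than at 24 h (log2 -5.51 ± 0.51, edgeR adjusted p = 3.88e-07) and 2.86-fold lower than ex vivo (-1.52 ± 0.51, adjusted p = 0.0138). The difference from ex vivo did not pass on log2(TPM + 1) (-0.54, limma adjusted p = 0.0806) or without ex vivo replicates 2 and 3 (-0.89, edgeR adjusted p = 0.197).

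Colec12, also called scavenger receptor with C-type lectin, changed late. It read 0.0928, 0.750, 1.73, 0.0717 and 0.389 CPM ex vivo, 1.19 and 0.690 CPM at 6 h, 2.01, 0.469 and 0.859 CPM at 24 h, and 65.7, 25.1, 23.5, 39.0 and 59.2 CPM at 7 d. Only the 7 d libraries were separate from the rest. Colec12 was 64.1-fold higher at 7 d than ex vivo (log2 6.00 ± 0.59, edgeR adjusted p = 2.59e-07) and 38-fold higher than at 24 h (5.25 ± 0.69, adjusted p = 1.81e-05). Without ex vivo replicate 3 the difference from ex vivo was 7.02, and without 24 h replicate 1 that from 24 h was 5.96. At 6 h and 24 h the differences from ex vivo were 0.53 (edgeR adjusted p = 0.599) and 0.75 (adjusted p = 0.373). Without ex vivo replicate 3, which holds most of its ex vivo reads, the 24 h difference was 1.80 and passed (edgeR adjusted p = 0.0436), and without replicates 2 and 3 the 6 h difference was 2.31 and passed (adjusted p = 0.0477).

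Stab1 held its level through 24 h within the spread and was higher at 7 d. It read 1791, 1318, 1288, 1840 and 2285 CPM ex vivo, 1879 and 1685 CPM at 6 h, 1558, 1753 and 1698 CPM at 24 h, and 8353, 3598, 3458, 7491 and 7837 CPM at 7 d. Replicates 2 and 3 at 7 d had less than the other 3, and still exceeded every earlier library. The differences from ex vivo were 0.06 at 6 h (edgeR adjusted p = 0.868) and -0.03 at 24 h (adjusted p = 0.935). At 7 d Stab1 was 3.61-fold higher than ex vivo (log2 1.85 ± 0.25, edgeR adjusted p = 5.4e-06).

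Scarb1 was higher at 6 h and 7 d, and lower at 24 h, than ex vivo. It read 49.3, 51.5, 42.5, 55.0 and 52.9 CPM ex vivo, 74.5 and 67.8 CPM at 6 h, 36.5, 34.6 and 33.4 CPM at 24 h, and 120, 98.1, 116, 114 and 117 CPM at 7 d. The 4 groups did not overlap. Scarb1 was 1.42-fold higher at 6 h than ex vivo (log2 0.50 ± 0.12, edgeR adjusted p = 0.00168), 1.44-fold lower at 24 h (-0.53 ± 0.11, adjusted p = 0.000584) and 2.25-fold higher at 7 d (1.17 ± 0.10, adjusted p = 1.39e-08). The 6 h difference did not pass on log2(TPM + 1), where it was 0.11 (limma adjusted p = 0.457).

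Marco, a class A receptor of marginal-zone and alveolar macrophages, was scarce throughout. It read 0, 2.50, 0, 0 and 0.0556 CPM ex vivo, 0 and 0.115 CPM at 6 h, 0.299, 0.512 and 0.258 CPM at 24 h, and 0.773, 1.75, 2.94, 2.14 and 0.470 CPM at 7 d. The ex vivo range, stretched by replicate 2, overlapped with that of every culture. The difference of 1.71 at 7 d from ex vivo did not pass (edgeR adjusted p = 0.163). Without ex vivo replicate 2 it was 6.47 at 7 d (edgeR adjusted p = 5.85e-05) and 4.30 at 24 h (adjusted p = 0.00613), and both passed; that library also held 173 CPM of neutrophil markers, whose part in the result was not tested.

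Set against ex vivo, 4 of the 7 receptors passed the test at 6 h, 4 at 24 h and 6 at 7 d. The shares of all 13840 genes tested that passed were 68%, 62.8% and 70.5%, so that these counts are near the background. The log2 differences of Cd36 (8.54) and Msr1 (7.87) at 7 d stood beside a median absolute difference of 0.88 over all genes. The share of genes with differences as large was not computed, and the ex vivo side rests on 152 Cd36 and 228 Msr1 reads. At 6 h all 4 were higher, as were 31.2% of the genes tested, with 36.8% lower. At 24 h 3 were higher and Scarb1 lower (29.6% and 33.1%), and at 7 d 5 were higher and Olr1 lower (34.8% and 35.7%). Over the same times the summed border-macrophage markers were 7.31 to 105 CPM ex vivo, 3.33 to 6.15 CPM at 6 h, 4.18 to 4.99 CPM at 24 h and 194 to 229 CPM at 7 d, with Cd209f at 0 in the cultures, and their part in these results was not tested. The mean levels of the markers went both ways at 7 d against ex vivo. Ms4a7 averaged 130.5 against 0.632 CPM and Pf4 14.4 against 0.695 CPM, without overlap. Mrc1 averaged 60.6 against 35.1 CPM, with overlap. Lower on average than ex vivo were F13a1 (1.54 against 6.43 CPM), Cd163 (0.953 against 3.05 CPM), Lyve1 (0.0423 against 1.89 CPM), Cbr2 and Cd209f. The ranges of these lower markers all overlapped with those ex vivo. The plot of receptor levels over time shows the 7 courses side by side.

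**Figure D2:**
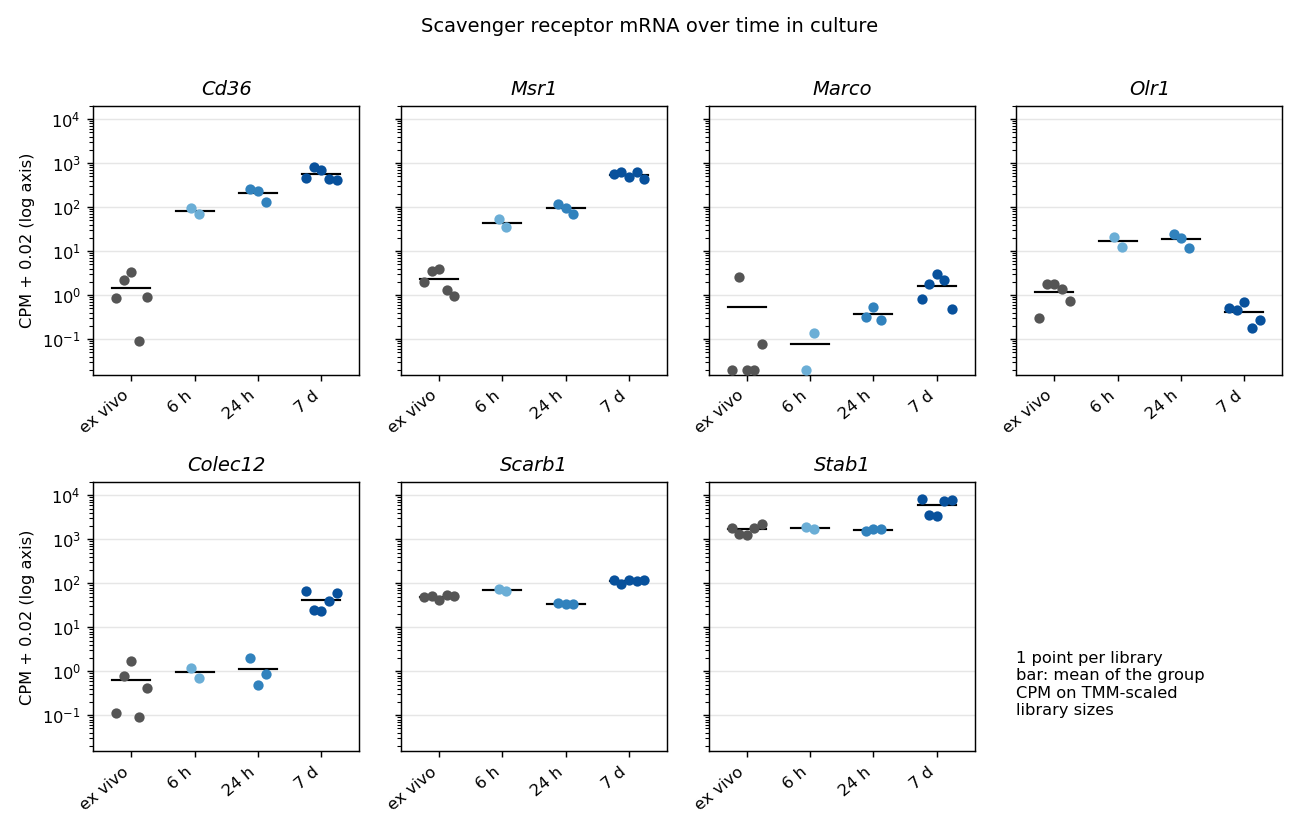
Scavenger receptor levels ex vivo (n = 5) and after 6 h (n = 2), 24 h (n = 3) and 7 d (n = 5) in culture, as CPM plus an offset of 0.02 on a log axis; each point is a library and each bar a group mean. Cd36 and Msr1 lie above ex vivo in every culture library and highest at 7 d, Olr1 is high at 6 h and 24 h only, Colec12 and Stab1 are high at 7 d, and Marco stays under 3 CPM.

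Between 6 h and 24 h, Scarb1 alone passed, 2.04-fold lower at 24 h (log2 -1.03 ± 0.14, edgeR adjusted p = 1.92e-05), against 41.8% of all genes (22% higher and 19.8% lower). Cd36 (1.32, edgeR adjusted p = 0.0866) and Msr1 (1.12, adjusted p = 0.0563) did not pass. Cd36 passed with only these groups in the fit (1.37, edgeR adjusted p = 0.0214) and on log2(TPM + 1) (1.595, limma adjusted p = 0.00744), and Msr1 passed with DESeq2 (1.02, adjusted p = 0.044) or without 24 h replicate 3 (1.33, edgeR adjusted p = 0.0423). Between 24 h and 7 d, 6 of the 7 receptors passed, 5 higher and Olr1 lower, against 48.8% of all genes (27.2% higher and 21.6% lower). Msr1 was 5.81-fold higher (log2 2.54 ± 0.38, edgeR adjusted p = 6.53e-05), Stab1 3.68-fold (adjusted p = 9.32e-05), Scarb1 3.25-fold (adjusted p = 1.24e-08) and Cd36 2.74-fold (1.46 ± 0.48, adjusted p = 0.0206). The Cd36 difference between these times did not pass without 24 h replicate 3 (1.17, edgeR adjusted p = 0.108) or without 7 d replicates 2 and 3 (1.07, adjusted p = 0.106).

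The receptors differed in their response to TGFβ at 7 d: Cd36 was 44.3-fold lower and Olr1 120-fold higher. These 2 of 7 passed the test, against 16.1% of all 13840 genes (9.57% higher and 6.52% lower). Cd36 read 7.90 and 17.7 CPM with TGFβ, against 465, 835, 691, 439 and 424 CPM without it. Every library with TGFβ was below every library without it (log2 -5.47 ± 0.73, edgeR adjusted p = 6.96e-05). Olr1 read 26.9 and 72.2 CPM with TGFβ, against 0.479, 0.446, 0.669, 0.158 and 0.256 CPM without it, again with no overlap (log2 6.91 ± 0.54, edgeR adjusted p = 2.22e-07). Replicate 2 with TGFβ held more of both transcripts; without it the differences were -6.15 for Cd36 and 6.06 for Olr1.

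Msr1 and Colec12 lay near the threshold. Msr1 read 138 and 351 CPM with TGFβ, against 554, 630, 479, 644 and 447 CPM without it. The groups did not overlap, but the difference did not pass (log2 -1.17 ± 0.42, edgeR adjusted p = 0.0695). It passed without TGFβ replicate 2 (-1.97, edgeR adjusted p = 0.0284) and with DESeq2 (-1.145, adjusted p = 0.0254). Colec12 read 126 and 106 CPM with TGFβ, against 65.7, 25.1, 23.5, 39.0 and 59.2 CPM without it. Both libraries with TGFβ were the higher ones (log2 1.45 ± 0.54, edgeR adjusted p = 0.0807). It passed on log2(TPM + 1) (1.38, limma adjusted p = 0.0148).

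The other 3 receptors did not pass between the 7 d cultures. Stab1 read 4557 and 3432 CPM with TGFβ, against 8353, 3598, 3458, 7491 and 7837 CPM without it. The TGFβ libraries overlapped with 7 d replicates 2 and 3 (log2 -0.62 ± 0.33, edgeR adjusted p = 0.229). Without those 2 replicates the difference was -0.98 and passed (edgeR adjusted p = 0.00695). Scarb1 read 144 and 116 CPM with TGFβ, against 120, 98.1, 116, 114 and 117 CPM without it (0.20, edgeR adjusted p = 0.314), and Marco read 0.320 and 1.88 CPM with TGFβ, against 0.470 to 2.94 CPM without it, with overlap (-0.54, edgeR adjusted p = 0.846). At the same time the summed border-macrophage markers were 63 to 86.6 CPM with TGFβ and 194 to 229 CPM without it, and their part in these results was not tested. Of the 8 markers, Ms4a7 averaged 65.8 ± 17.1 CPM with TGFβ and 131 ± 31.1 CPM without it, Mrc1 4.39 and 60.6 CPM, and Pf4 2.32 and 14.4 CPM (SD, n = 2 and 5), and Cd209f had 0 reads in every culture. The F13a1 mean went the other way, at 2.11 CPM with TGFβ and 1.54 CPM without it, with overlapping ranges.

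**Figure D3:**
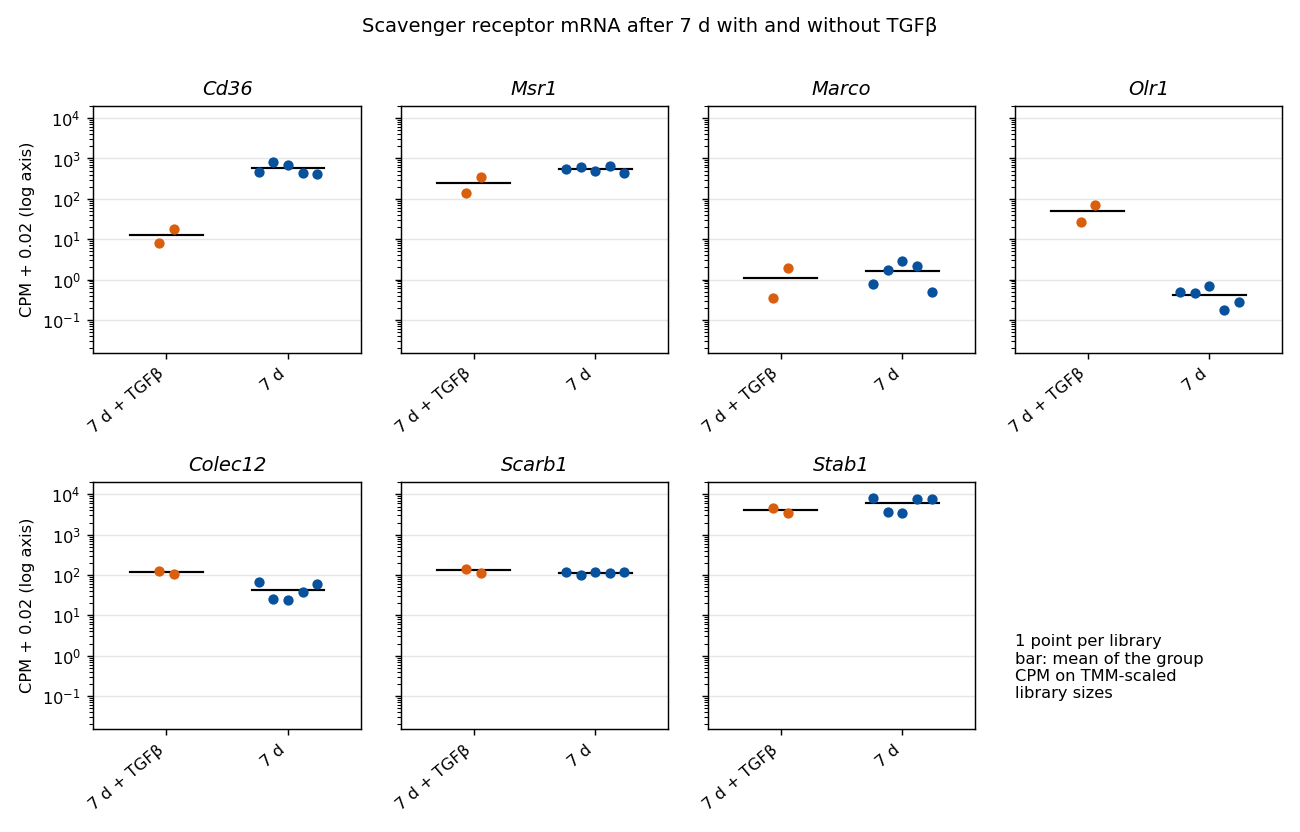
Scavenger receptor levels after 7 d with TGFβ (left, n = 2) and without it (right, n = 5), as CPM plus an offset of 0.02 on a log axis; each point is a library and each bar a group mean. Cd36 lies at 7.90 and 17.7 CPM with TGFβ against 424 to 835 CPM without it, and Olr1 shows the opposite order.

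In the 7 d cultures with TGFβ, most receptors were above their ex vivo levels. Against ex vivo, which also serves the other culture comparisons, 6 of the 7 receptors passed at 7 d with TGFβ and all 6 were higher, against 55.8% of all genes (28.3% higher and 27.5% lower). Colec12 was 175-fold higher (log2 7.45 ± 0.65, edgeR adjusted p = 1.99e-07; 8.48 without ex vivo replicate 3), and Msr1 104-fold (6.70 ± 0.42, adjusted p = 4e-09). Olr1 was 42.1-fold higher (5.39 ± 0.51, edgeR adjusted p = 3.25e-07), and Cd36 8.4-fold (3.07 ± 0.56, adjusted p = 0.000276; 3.70 without ex vivo replicate 3). Scarb1 was 2.58-fold higher (edgeR adjusted p = 9.11e-08) and Stab1 2.34-fold (adjusted p = 0.00281). Without TGFβ replicate 2 the log2 differences were 5.90 for Msr1, 4.53 for Olr1 and 2.39 for Cd36, and without TGFβ replicate 1 Stab1 no longer passed (1.01, edgeR adjusted p = 0.0526). Marco did not pass (1.18, edgeR adjusted p = 0.467), and without ex vivo replicate 2 it did (5.93, adjusted p = 0.00055).

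Per transcript length, the order of the receptors at 7 d without TGFβ was Stab1 (1285 ± 509 TPM), Msr1 (307 ± 58.4 TPM), Cd36 (277 ± 89.4 TPM), Scarb1 (75.2 TPM), Colec12 (21.2 TPM), Marco (1.35 TPM) and Olr1 (0.178 TPM; SD, n = 5). Msr1 and Cd36 overlapped and are not ordered by these libraries. With TGFβ, Stab1 (755 TPM) still led, Msr1 (131 TPM) and Scarb1 (78.0 TPM) overlapped and are not ordered, Olr1 had 22.0 TPM, and Cd36 was sixth with 5.66 TPM. The reads of overlapping genes cannot be told apart where counting did not use strand, and whether it did is not stated in the labels. RefSeq places lncRNA genes across part of Scarb1, Olr1 and Stab1, and the end of Nt5dc2 across that of Stab1.

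The genes that handle lipid after uptake were mostly higher in culture too, and a part of them was lower with TGFβ. Of 13 such genes, 10 were higher and 3 lower at 7 d than ex vivo, with a median log2 difference of 3.13 against -0.02 for all genes tested, of which 34.8% were higher and 35.7% lower. Lpl, which hydrolyses lipoprotein triglyceride, averaged 10220 ± 580 CPM at 7 d and 31.2 ± 14.7 CPM ex vivo (SD, n = 5 each; log2 8.35 ± 0.36, edgeR adjusted p = 7e-12). Plin2, which coats lipid droplets, averaged 2872 ± 233 CPM at 7 d and 19.0 ± 3.91 CPM ex vivo (7.24 ± 0.19, edgeR adjusted p = 1.27e-13). Lipa, the lysosomal acid lipase, was higher by 3.13 ± 0.15 (edgeR adjusted p = 1.67e-11). Abcg1, which exports cholesterol to HDL, was lower, with 17.6 ± 3.90 CPM at 7 d and 304 ± 37.3 CPM ex vivo (-4.11 ± 0.19, edgeR adjusted p = 1.09e-11). At 6 h 7 of these genes were already higher and 3 lower, beside 31.2% and 36.8% of all genes, with Lpl at 9294 CPM.

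With TGFβ, 2 of the 13 were higher and 5 lower than at 7 d without it, with a median of -0.34 against -0.04 for all genes, of which 9.57% were higher and 6.52% lower. Lpl averaged 872 ± 115 CPM with TGFβ and 10220 ± 580 CPM without it (SD, n = 2 and 5; log2 -3.55 ± 0.43, edgeR adjusted p = 1.76e-05). Plin2 averaged 1040 ± 174 CPM with TGFβ and 2872 ± 233 CPM without it (-1.47 ± 0.20, edgeR adjusted p = 7.29e-05). Soat1, which esterifies cholesterol, was lower by a log2 difference of -1.41 (edgeR adjusted p = 0.000416), whereas Abcg1 was higher by 2.41 ± 0.20 (adjusted p = 3.09e-07). Npc2 (0.42, edgeR adjusted p = 0.128) and Lipa (-0.29, adjusted p = 0.31) did not pass.

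Of 13 transcription factors linked to scavenger receptor genes, 8 were higher and 3 lower at 7 d than ex vivo (median 0.47), against 70.5% of all genes called (34.8% higher and 35.7% lower). Pparg, the lipid-activated receptor PPARγ, averaged 10.6 ± 3.78 CPM at 7 d and 0.0690 ± 0.122 CPM ex vivo (log2 6.93 ± 0.59, edgeR adjusted p = 2.25e-08). Ppard, its relative PPARδ, was lower by -2.22 ± 0.16 (edgeR adjusted p = 2.63e-09), and the bHLH factors Mitf (1.66 ± 0.16, adjusted p = 9.59e-08) and Tfec (4.77 ± 0.46, adjusted p = 2.05e-07) were higher. Nr1h2, which encodes LXRβ, did not pass (-0.13, edgeR adjusted p = 0.392), nor did Cebpb (-0.32, adjusted p = 0.433). With TGFβ, 2 were higher and 3 lower than at 7 d without it (median -0.13), against 16.1% of all genes called. Pparg averaged 0.0936 ± 0.0678 CPM with TGFβ and 10.6 ± 3.78 CPM without it (-6.68 ± 0.85, edgeR adjusted p = 3.11e-05), Ppard was higher by 1.50 (adjusted p = 3.11e-05) and Mitf lower, at -1.31 (adjusted p = 0.000439). Spi1, which encodes PU.1, differed by 0.02 (edgeR adjusted p = 0.963).

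**Figure D4:**
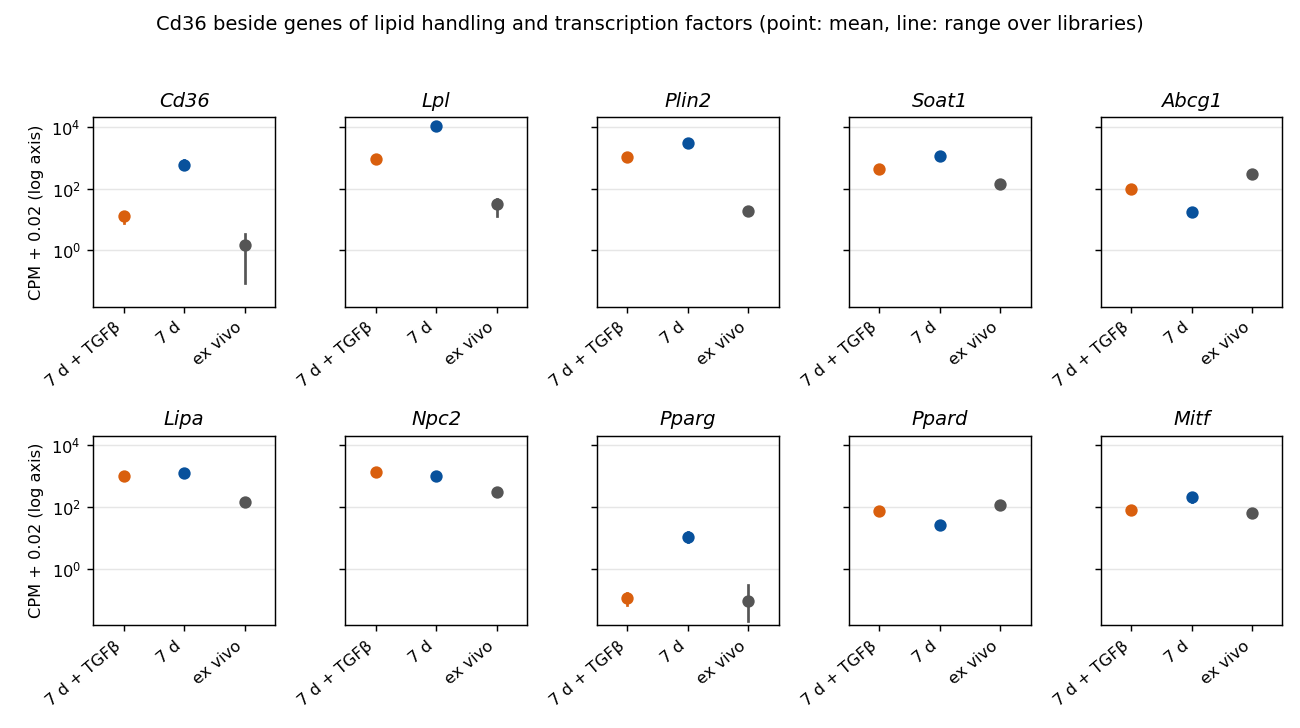
Cd36 beside 6 genes of lipid handling and 3 transcription factors after 7 d with TGFβ (n = 2), after 7 d without it (n = 5) and ex vivo (n = 5), as CPM plus an offset of 0.02 on a log axis; points are group means and lines the range over libraries. Cd36, Lpl and Pparg are highest at 7 d without TGFβ, and Abcg1 and Ppard are lowest there.

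Among 16 other scavenger receptors, 12 were tested in the cultures, and at 7 d 5 were higher and 2 lower than ex vivo (median 0.27), against 70.5% of all genes called. Cd5l, a secreted scavenger-receptor cysteine-rich protein of macrophages, averaged 120 ± 37.5 CPM at 7 d and 1.15 ± 0.488 CPM ex vivo (log2 6.69 ± 0.33, edgeR adjusted p = 5.05e-11). Cd68, the lysosomal macrophage protein macrosialin, averaged 2149 ± 248 CPM at 7 d and 509 ± 56.5 CPM ex vivo (2.08 ± 0.13, edgeR adjusted p = 3.8e-10). Cxcl16, whose membrane form binds oxidised lipoprotein, was higher by 2.34 ± 0.20 (edgeR adjusted p = 2.36e-08) and Scarf2 lower, at -2.40 ± 0.28 (adjusted p = 9.59e-07). Scarb2, a lysosomal class B relative of Cd36, did not pass (-0.24, edgeR adjusted p = 0.122), nor did the mannose receptor Mrc1 (0.78, adjusted p = 0.12).

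With TGFβ, 3 of the 12 were higher and 3 lower than at 7 d without it (median -0.67), against 16.1% of all genes called. Cd5l averaged 14.4 ± 7.92 CPM with TGFβ and 120 ± 37.5 CPM without it (log2 -3.05 ± 0.39, edgeR adjusted p = 3.4e-05). Mrc1 averaged 4.39 ± 0.252 CPM with TGFβ and 60.6 ± 13.9 CPM without it (-3.79 ± 0.74, edgeR adjusted p = 0.002). Cxcl16 was higher by 1.33 ± 0.24 (edgeR adjusted p = 0.000803) and Scarb2 by 0.98 ± 0.17 (adjusted p = 0.000646). Lrp1, a large endocytic receptor, did not pass (-0.45, edgeR adjusted p = 0.368), nor did Scarf1 (-1.19, adjusted p = 0.074).

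Of 12 tested co-receptors and signalling partners, 3 were higher and 5 lower at 7 d than ex vivo (median -0.30), against 70.5% of all genes called. The tetraspanin Cd81 was lower by -1.66 (edgeR adjusted p = 9.15e-09) and the kinase Src by -1.46 (adjusted p = 1.6e-07), and the integrin Itgb1 was higher by 1.29 (adjusted p = 6.47e-08). With TGFβ 3 were higher and 0 lower than at 7 d without it (median 0.06; 3 of 12 at 25% against 16.1% of all genes): Cd81 by 1.79 (edgeR adjusted p = 5.63e-07), Src by 1.68 (adjusted p = 4.04e-06) and Tlr2 by 2.38 (adjusted p = 3.98e-05). Tlr2, a receptor for bacterial lipoproteins, averaged 727 ± 151 CPM with TGFβ and 140 ± 63.8 CPM without it. Of 5 tested lipoprotein receptors, Lrp8, a receptor for reelin and apolipoprotein E, averaged 17.9 ± 5.43 CPM at 7 d and 0.551 ± 0.424 CPM ex vivo (log2 4.96 ± 0.36, edgeR adjusted p = 3.88e-09). It alone of the 5 passed with TGFβ, 1.51 higher than without it (adjusted p = 0.0047).

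Across the 17 microglial libraries, Msr1 and Cd36 had a Pearson correlation of 0.90 on log2 CPM, whereas Olr1 and Cd36 had 0.01 and Olr1 and Stab1 -0.39. The genes most like Cd36 were Pmpcb (0.97), Necap1 (0.97) and Drg1 (0.97), and those most like Msr1 were Sdcbp (0.99), Plxnc1 (0.98) and Milr1 (0.98). Most like Olr1 were Rfx2 (0.91), Serinc2 (0.91) and Med14 (0.90). Colec12 was most like Prnp, Smpdl3a and Apoc2 (0.96 each), Stab1 like Pafah2, Slc35d1 and Lama3 (0.94 to 0.95), Scarb1 like Rac1, Ctla2b and Plekhh2 (0.94 to 0.97), and Marco like Saa3, Eif5a2 and Tmem123 (0.84 to 0.87). These libraries share their 5 groups, so the values describe the group pattern.

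Promoter sequence was held for 4 of the 7 genes (Cd36, Olr1, Marco and Stab1), as the 250 bases before the annotated start in RefSeq, build GRCm38.p6. Those of Cd36 and Olr1, the receptors that differed most in opposite directions with TGFβ, are printed 5′ to 3′, both from the minus strand; capitals mark a motif match. Cd36 spans chr5:17835897-17836146 and Olr1 chr6:129507166-129507415.
Cd36: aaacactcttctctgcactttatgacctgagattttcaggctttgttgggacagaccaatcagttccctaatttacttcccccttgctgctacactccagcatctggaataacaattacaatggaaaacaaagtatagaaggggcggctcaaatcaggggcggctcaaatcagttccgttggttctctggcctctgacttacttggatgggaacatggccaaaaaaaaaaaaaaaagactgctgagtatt
Olr1: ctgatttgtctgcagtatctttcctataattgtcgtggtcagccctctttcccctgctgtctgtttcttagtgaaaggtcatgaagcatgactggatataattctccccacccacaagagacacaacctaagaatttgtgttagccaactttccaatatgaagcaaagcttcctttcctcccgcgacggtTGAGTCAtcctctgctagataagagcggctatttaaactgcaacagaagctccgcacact

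A set of 5 motifs was searched on both strands: the AP-1 site TGANTCA, a PU.1 core GAGGAAGT, the E-box CACGTG, the consensus direct repeat of PPAR-RXR dimers and the palindrome GTCTAGAC of SMAD factors. They occurred in 6.75%, 2.44%, 6.02%, 0.03% and 0.17% of 32851 promoters of the same length. Olr1 held 1 match, the AP-1 letters TGAGTCA beginning 60 bases before the start, and the windows of Cd36, Marco and Stab1 held none, which says only that these letters are not in those windows. The Olr1 and Stab1 windows each overlapped with an ATAC peak at 7 d and with none ex vivo. The Stab1 window also overlapped with an H3K27ac peak in each condition and an ex vivo H3K4me2 peak, and the Marco window with no peak. The Cd36 window overlapped with an ATAC peak at 7 d and one ex vivo, and with an ex vivo H3K4me2 peak.

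Around Cd36 the chromatin lists differed more between 7 d and ex vivo than around most genes. The authors called peaks with 1 pooled tag directory per condition, so that these are counts without replicates or a test. ATAC peaks mark open chromatin, H3K27ac active regulatory chromatin, H3K4me2 promoters and enhancers, and PU.1 is the myeloid factor; the last 2 were mapped ex vivo only. One of the pooled 7 d ATAC libraries is labelled 8 d. The 7 d lists are also longer by count, with 112977 ATAC peaks against 90674 ex vivo and 31349 H3K27ac peaks against 24520. In covered sequence ATAC kept this order (22.71 against 18.23 Mb). H3K27ac did not, with 50.9 Mb at 7 d and 61.29 Mb ex vivo, and median peak widths of 1117 and 1777 bp. The H3K27ac lists came from 27568358 tags at 7 d, 32.13% in peaks, and 45586997 ex vivo, 64.04% in peaks. The part of these differences in the peak counts below was not tested.

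Within 100 kb of the Cd36 gene body (mm10, chr5:17781690-17888959, minus strand) there were 33 ATAC peaks at 7 d and 10 ex vivo. The window also reaches into Sema3c, Gnat3 and the lncRNA gene Gm31612, and some of its outer peaks lie in those genes. In the Cd36 gene body itself lay 20 of the 33 and 8 of the 10. Of the 33, 9 (27.3%) overlapped with an ex vivo peak by 1 base or more, against 60.2% of all 7 d ATAC peaks. H3K27ac peaks numbered 12 at 7 d, covering 23.1 kb, and 0 ex vivo. Of the 12, 10 lay in the gene body, the widest being 6682 bp (chr5:17876098-17882779) and 5766 bp (chr5:17852934-17858699). Within 20 kb, the gain of 17 ATAC peaks at 7 d over ex vivo was matched or passed by 0.3% of 21883 protein-coding genes, and the gain of 10 H3K27ac peaks by 0.1%; genes were not matched on length.

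The annotated start of Cd36 lies inside this gene body at position 17835896, and the ATAC peak there was called in both conditions (chr5:17835956-17836156 at 7 d and chr5:17835954-17836154 ex vivo). PU.1 was not called at that peak. There were 6 PU.1 peaks within 100 kb, 5 of them under a 7 d ATAC peak and 4 under an ex vivo ATAC peak. Of all PU.1 peaks, 57.6% lay under a 7 d and 60% under an ex vivo ATAC peak. Within the 5766 bp H3K27ac region lay 2 of the 6. Of the 24 ATAC peaks called at 7 d without an ex vivo peak, 6 overlapped with 7 d H3K27ac and 1 with ex vivo PU.1. Of the 9 called in both, 7 overlapped with 7 d H3K27ac and 4 with PU.1. Among all 7 d ATAC peaks, 30.8% overlapped with 7 d H3K27ac and 40.4% with PU.1. All peaks were not split by ex vivo ATAC, so this split has no background beside it.

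Msr1 (mm10, chr8:39543232-39642750) had 28 ATAC peaks at 7 d and 11 ex vivo within 100 kb. In its gene body lay 13 of the 28 and 5 of the 11. The window also holds the lncRNA gene Gm36741 and pseudogenes, and some of its outer peaks lie in them. All 11 ex vivo peaks were overlapped by a 7 d peak, and 11 of the 28 7 d peaks (39.3%) by an ex vivo one, against 60.2% of all 7 d ATAC peaks. H3K27ac peaks numbered 7 at 7 d, covering 13.4 kb, and 2 ex vivo, covering 2.4 kb. The widest at 7 d, 4385 bp (chr8:39641186-39645570), spanned the upper end of the gene body, held ATAC peaks of both conditions and 2 ex vivo PU.1 peaks, and had no ex vivo H3K27ac peak. The next, 4208 bp (chr8:39648958-39653165), stood over an ex vivo peak of 501 bp (chr8:39651414-39651914). There were 9 ex vivo PU.1 peaks within 100 kb, 7 under a 7 d ATAC peak and 6 under an ex vivo one, against 57.6% and 60% of all PU.1 peaks. Of the 17 ATAC peaks called at 7 d alone, 3 overlapped with 7 d H3K27ac and 1 with PU.1, and of the 11 called in both, 7 and 6. Here too the split has no background over all peaks. The gain of 10 ATAC peaks within 20 kb was matched or passed by 1.1% of genes, and that of 4 H3K27ac peaks by 2.3%.

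**Figure D5:**
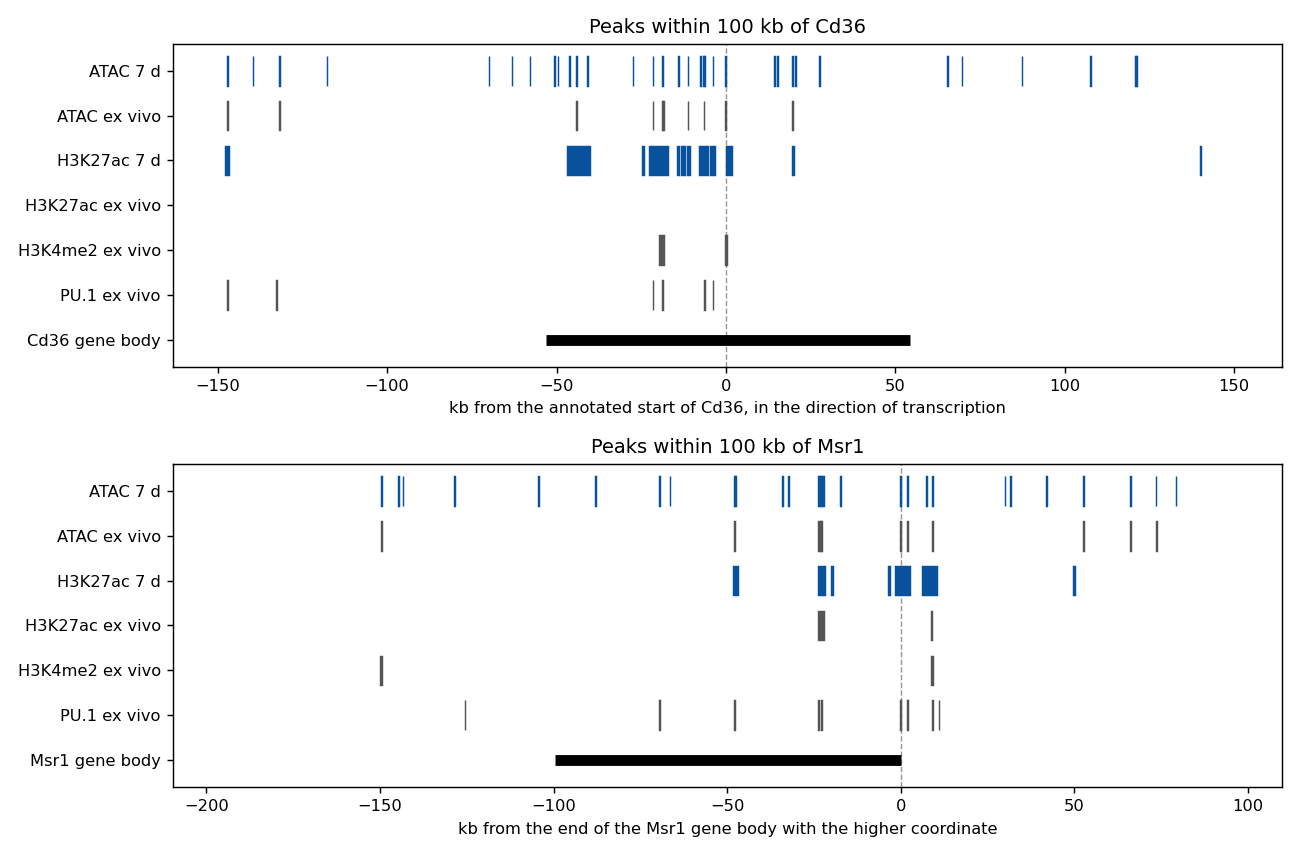
Peaks within 100 kb of Cd36 (above) and Msr1 (below), with distance in kb on the x axis and 1 row for each pooled list; boxes are drawn at the peaks' widths and the black bar is the gene body. The Cd36 window has 33 ATAC and 12 H3K27ac peaks at 7 d against 10 and 0 ex vivo. The Msr1 window has 28 and 7 at 7 d against 11 and 2 ex vivo. Neighbouring genes in the windows are not drawn.

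The other 5 receptors, counted within 20 kb, differed among themselves. Colec12 had 21 ATAC peaks at 7 d and 1 ex vivo, a gain matched or passed by 0.2% of genes. Scarb1 had 15 at 7 d and 14 ex vivo, Olr1 15 and 13, Stab1 12 and 9, and Marco 8 and 7. Stab1 had 4 H3K27ac peaks at 7 d and 7 ex vivo, while Scarb1 had 4 in each. Within 100 kb the Stab1 peaks were fewer but covered more at 7 d. They numbered 8 over 36.3 kb, the widest 14521 bp, against 10 over 31.7 kb ex vivo, the widest 6674 bp. For Scarb1 they covered 28.2 kb at 7 d and 37.2 kb ex vivo. Of the 7 genes, Cd36, Msr1 and Colec12 had the largest RNA differences at 7 d over ex vivo, and the same 3 had the largest gains in ATAC peaks. Those 3 are also the longest of the 7, at 107270, 99519 and 170348 bp against 28201 to 64008 bp for the others. Longer genes have more room for peaks, and none of the shares of genes was matched on length.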

How the data were processed

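Poly(A) RNA was sequenced, per the labels' protocols. The authors deposited whole-number read counts per gene symbol for 21 libraries, and a TPM table that its name calls trimmed; what was trimmed is not stated, and the listed TPM sum to 568934 to 644847 per library. Without roles, the builds mm10 and hg38 and the tools R 3.3.1, limma, bedtools, HOMER, STAR and Bowtie2 stand in the submitters' processing notes. Per the file headers, HOMER called peaks on 1 pooled tag directory per condition, using input for all but ATAC, from 15223392 to 55635249 tags; the peak files hold no usable score.

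From the counts, edgeR 4.0.16 (R 4.3.3) was run with TMM factors, filterByExpr (minimum count 10, minimum total 15) and the robust quasi-likelihood F test. The 17 microglial libraries entered 1 model of group means with 13840 genes, and ex vivo microglia and lysate a model of their own with 15335 genes, so that ex vivo CPM differ slightly between them. P-values were adjusted by Benjamini-Hochberg over all genes tested, with a threshold of 0.05, and standard errors were taken as |log2 fold change| / sqrt(F). TMM factors were 0.784 and 0.814 at 6 h and 0.916 to 1.13 in the other microglial libraries. The script was tested on simulated counts. Alternatives were RLE factors, DESeq2 1.42.0, no filter, other sets of libraries, a replicate block, each library left out, and limma 3.58.1 on log2(TPM + 1) and log2(TPM + 0.1). Peaks were taken within 100 kb of a gene body (20 kb as an alternative) and counted as shared at 1 base.

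Per list, the genes named are at most 4 that passed, by adjusted p, and 2 that did not, by mean CPM, and likeness is the Pearson correlation of log2 CPM with a prior count of 2. The members and lists were chosen with earlier results of these data known. Results for some list genes are not reported here.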

Additional observations from a re-analysis of the deposited data

Results flagged for a closer look

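In ex vivo replicate 2, Marco stood apart from the other 4 libraries of its group, at 2.50 CPM against 0 to 0.0556 CPM. The gap to the nearest library was 0.978 of the group's range, above the 95% critical value of 0.71. The same library held 173 CPM of neutrophil markers, and their part in the Marco level was not tested.

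In 7 d replicate 2, Scarb1 was lower than in the other 4 libraries, at 98.1 CPM against 114 to 120 CPM, with a gap of 0.738 of the range. Of 19 groups of libraries examined in this way, 2 were set apart, and chance sets apart about 1 in 20.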

How the results depend on the processing

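RLE factors, and for the lysate comparison all 21 libraries in 1 model, changed no direction or call of any receptor. Results that turned sign were differences that had not passed. For Stab1 at 24 h over ex vivo (-0.03) the difference was 0.010 with no filter and -0.11 to 0.11 with 1 library left out. For Stab1 at 6 h over ex vivo (0.06) it was -0.29 on log2(TPM + 1), with or without a filter, -0.29 on log2(TPM + 0.1), -0.15 without ex vivo replicates 2 and 3, and -0.016 to 0.22 with 1 library left out. For Stab1 at 24 h over 6 h (-0.09) it was 0.25 on all 3 TPM scales. With 1 library left out, Olr1 at 24 h over 6 h ranged from -0.17 to 0.60, Colec12 from -0.49 to 0.67, and Cd36 over lysate from -0.23 to 1.38 (-0.86 without ex vivo replicates 2 and 3). Marco ranged from -6.48 to 1.70 at 6 h, -0.80 to 4.30 at 24 h and -0.57 to 5.93 at 7 d with TGFβ over ex vivo, and from -2.29 to 0.23 between the 7 d cultures. Without ex vivo replicates 2 and 3 Marco was 1.30 at 6 h and 3.91 at 24 h (edgeR adjusted p = 0.0215), and on TPM at 24 h it was 0.038 (+ 1, with or without a filter) and 1.03 (+ 0.1). The causes were not tested.

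Of the counts of receptors that passed, that of 24 h over 6 h (1) was 2 with DESeq2, 3 with only the groups compared, 3 on log2(TPM + 1) with or without a filter, and 1 to 2 with 1 library left out. That of TGFβ over 7 d (2) was 4 on log2(TPM + 1) with or without a filter and 2 to 3 with 1 library left out. Over ex vivo the counts with 1 library left out were 4 at 6 h, 4 to 5 at 24 h, 6 to 7 at 7 d and 5 to 7 with TGFβ; they were 5 to 6 at 7 d over 24 h and 4 to 5 against lysate. Same-numbered libraries had correlated deviations of 0.213 and 0.204 at 24 h over 6 h and of 0.106 and 0.36 for TGFβ over 7 d, where 2 pairs each leave the pairing undecided, and of -0.126 to 0.157 in the other comparisons. With a replicate block, 4 receptors passed at 24 h over 6 h and 4 with TGFβ over 7 d. Scarb1 at 6 h over ex vivo no longer did (0.54, edgeR adjusted p = 0.0651). Marco passed at 7 d over ex vivo (3.40, edgeR adjusted p = 0.0412) and over 24 h (2.15, adjusted p = 0.0134), and Stab1 at 24 h over ex vivo was 0.20. At 24 h over 6 h, 3045 of all 13840 genes were higher and 2734 lower in the model of all microglial libraries. These were 4221 and 3733 of 12228 with only the groups compared, and 4396 and 3938 of 12228 with the block. For TGFβ over 7 d they were 1325 and 902 of 13840, and 613 and 374 of 12736 with the block. With the block, all-gene calls were thus more frequent at 24 h over 6 h and less frequent for TGFβ over 7 d.

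With only peaks at least as wide as their list's median, Cd36 had 5 H3K27ac peaks at 7 d and 1 H3K4me2 peak, and Msr1 4 and 1 H3K27ac peaks at 7 d and ex vivo and 0 H3K4me2 peaks. Within 20 kb Msr1 had 17 ATAC peaks at 7 d, 7 ex vivo and 1 H3K4me2 peak. Leaving out replicates 2 and 3 of a group together was chosen after the data were seen. Groups of 2 libraries limit the 6 h and TGFβ comparisons, and 0 to 228 reads over a group limit Cd36, Msr1, Marco, Olr1 and Colec12 ex vivo or in lysate. Low counts in culture are a limit as well. Olr1 had 54 reads over the 5 libraries at 7 d, on which its 120-fold and 45.6-fold differences rest. Marco had 2 reads at 6 h and 25 at 24 h, and Colec12 36 and 78.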

Other observations

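Of 14 other scavenger receptors tested, 8 were higher and 4 lower in microglia than in lysate (median log2 difference 2.40, against -0.10 for all genes), near the 82.7% of all genes called. Cd68 averaged 592 CPM in microglia and 6.77 CPM in lysate (log2 6.45 ± 0.16, edgeR adjusted p = 4.74e-11), and Cxcl16 49.6 and 1.29 CPM (5.25 ± 0.16, adjusted p = 9.02e-11). Megf10, an engulfment receptor of astrocytes, averaged 0.154 CPM in microglia and 25.1 CPM in lysate (-7.33 ± 0.40, edgeR adjusted p = 6.47e-09). Of 6 lipoprotein receptors, 2 were higher and 4 lower, beside 39.1% and 43.5% of all genes, and the lowest were Vldlr (-8.76 ± 0.41, edgeR adjusted p = 1.84e-09) and Lrp8 (-7.21 ± 0.36, adjusted p = 3.93e-09).

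At 6 h, when Colec12 and Stab1 did not pass against ex vivo, Cxcl16 averaged 673 CPM, against 42.6 CPM ex vivo (3.98 ± 0.24, edgeR adjusted p = 3.19e-10). Scarb2 averaged 85.5 CPM at 6 h and 580 CPM ex vivo (-2.76 ± 0.21, edgeR adjusted p = 5.99e-09), although at 7 d it did not differ past the threshold. Lrp8 averaged 51.3 CPM at 6 h and 0.551 CPM ex vivo (6.48 ± 0.40, edgeR adjusted p = 5.72e-10).

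The 5 libraries at 7 d fell into the same 2 sets for several receptors. Replicates 2 and 3 had more Cd36 (835 and 691 CPM, against 424 to 465 CPM in the other 3) and less Stab1 (3598 and 3458 CPM, against 7491 to 8353 CPM) and Colec12 (25.1 and 23.5 CPM, against 39.0 to 65.7 CPM). The labels give no reason to set these libraries apart.

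The deposited TPM and the counts did not keep a fixed ratio for Msr1. In libraries with at least 10 reads, its TPM per CPM was 0.521 to 0.581 at 7 d and 0.152 to 0.479 ex vivo, whereas that of Stab1 was 0.203 to 0.212 at 7 d and 0.229 to 0.251 ex vivo, and that of Cd36 0.473 to 0.495 at 7 d and 0.536 to 0.571 ex vivo.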
